A study of Mus musculus with 15 samples.

Results

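Keratins, claudins and the adhesion and regulatory proteins that epithelial cells use together were followed in heart RNA from mice given methamphetamine (meth) or saline. The genes were chosen by name, with earlier results of these data known. Shares over all genes stand beside their counts as description, not as a test. Every keratin whose symbol is Krt and a number was taken, every claudin whose symbol is Cldn and a number, and 16 single genes (Epcam, Cdh1, Cdh3, Tspan1, Tspan8, Elf3, Esrp1, Grhl2, Tjp3, Ocln, Gabrp, Spint1, Spint2, St14, Prom1 and Trp63). On the array these rules matched 96 features of 80 genes, out of 18350 genes with a named feature. The 80 genes were 41 keratins, 24 claudins and 15 of the single genes, with Spint2 the symbol for which no feature was matched.

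Keratins are the intermediate filaments of epithelial cells. They pair as a type I and a type II chain, so that Krt18 and Krt19 pair with Krt8 and Krt7 in simple epithelia, and Krt14 and Krt15 accompany Krt5 in the basal cells of layered epithelia. Claudins are membrane proteins that seal the tight junctions between neighbouring cells, and each cell type uses its own set. Cdh1 (E-cadherin) and Epcam join epithelial cells to each other, and the transcription factors Grhl2, Elf3 and Trp63 and the splicing regulator Esrp1 maintain the epithelial state. Heart muscle is not an epithelium. Its few cells with keratins include the mesothelium that covers the surface, and its endothelium carries the claudin Cldn5.

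The 15 hearts came from C57BL/6 mice, young adult at the start, with 1 mouse on each array. Meth was injected weekly into the peritoneum in phosphate-buffered saline (PBS), rising to 40 mg/kg at week 20, and controls received PBS alone. Hearts were taken after 5 months. The meth groups were 4 males and 4 females, and the PBS groups 4 males and 3 females. The male groups each held 2 mice of each of 2 trials, while the titles of the female samples name 1 trial and another label puts 3 of them in trial 2. No altered allele is named for any mouse, and the part of the heart that was homogenised is not given in the sources used here.

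Signals are given on a log2 scale relative to the 75th percentile of the same array, so that 1 unit is a doubling and values below 0 lie under that percentile. They compare the same feature between arrays, not different genes with each other. A feature counts as detected where the scanner software marked it well above background, which was 61.4% to 71.4% of all features on an array. Where a gene has several features, the brightest stands for it. Features detected on 3 or more arrays, 28358 in number, entered a limma fit that covered every array and had trial as a covariate. A gene was called where its adjusted p was under 0.05. Where signals of 2 groups are said not to overlap, this is description. The share of all features without overlap was not counted. For male meth against PBS, 13.2% of all tested genes had an unadjusted limma p under 0.05. The arrays lay on 4 slides, scanned in 3 sessions (slides 1 and 2 together, slide 3, and slide 4). Males of trial 1 lay on slides 1 and 2, and males of trial 2 on slide 3. Slide 4 carried 3 females (meth replicates 3 and 4 and PBS replicate 3), the same 3 that the other label puts in trial 2. It was brighter than the rest, with a 75th percentile signal of 438 to 589 against 307 to 403 on the other slides. All 8 cardiomyocyte markers examined were detected on every array.

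Many of the 80 genes were not marked well above background in the heart. By a more lenient flag, positive and significant against background, 48 to 66 of them passed on each array. 20 were detected on all 15 arrays (9 keratins, 10 claudins and Grhl2), 19 on 3 to 14 arrays, 11 on 1 or 2 arrays, and 30 on none. Cldn1, Cldn4, Cldn8, Cldn18, Esrp1 and Ocln (occludin, another tight junction protein) were among the 30, so no level is given for them. The 39 genes on 3 or more arrays were tested, with 42 features. These comprised 16 keratins, 13 claudins and 10 of the single genes.

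The number of genes detected was higher after meth in males. Male meth arrays detected 33, 38, 30 and 32 of the 80 genes, and male PBS arrays 22, 25, 24 and 21, so the male groups did not overlap. The share of all genes detected did not overlap between them either, with 73.1% to 74.1% after meth and 71.4% to 72.9% after PBS. By a more lenient flag of the same software, a signal positive and significant against background, the counts met at 54 genes (54 to 62 after meth and 48 to 54 after PBS). Female meth arrays detected 28, 27, 37 and 35 genes, and female PBS arrays 25, 26 and 40. The female groups overlapped, and their 3 highest counts were on slide 4, where 76.8% to 79.3% of all genes were detected against 71.4% to 74.1% on the other slides. Without slide 4, the female medians were 27.5 genes after meth and 25.5 after PBS. The rise in males lay mainly in the single adhesion, membrane and regulatory genes, of which male meth arrays detected 7 to 12 and male PBS arrays 1 to 3. 8 of the 80 genes (10.0%) were detected on at least 3 male meth arrays and on no male PBS array, against 0.605% of all 18350 genes, and none showed the reverse pattern. These were Krt15, Krt23, Cldn22, Tspan1, Gabrp, Cdh1, Prom1 and Tjp3. As the 80 genes were chosen with earlier results of these data known, the 2 shares are no test of them. Krt15, Krt23 and Cdh1 were also undetected on all 7 female arrays. The other genes were detected in females, Tjp3 on 4 meth and 3 PBS arrays and Cldn22 on 3 and 2. Gabrp and Tspan1 were each detected on 1 female meth and 1 female PBS array, and Prom1 on 2 and 0.

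**Figure D1:**
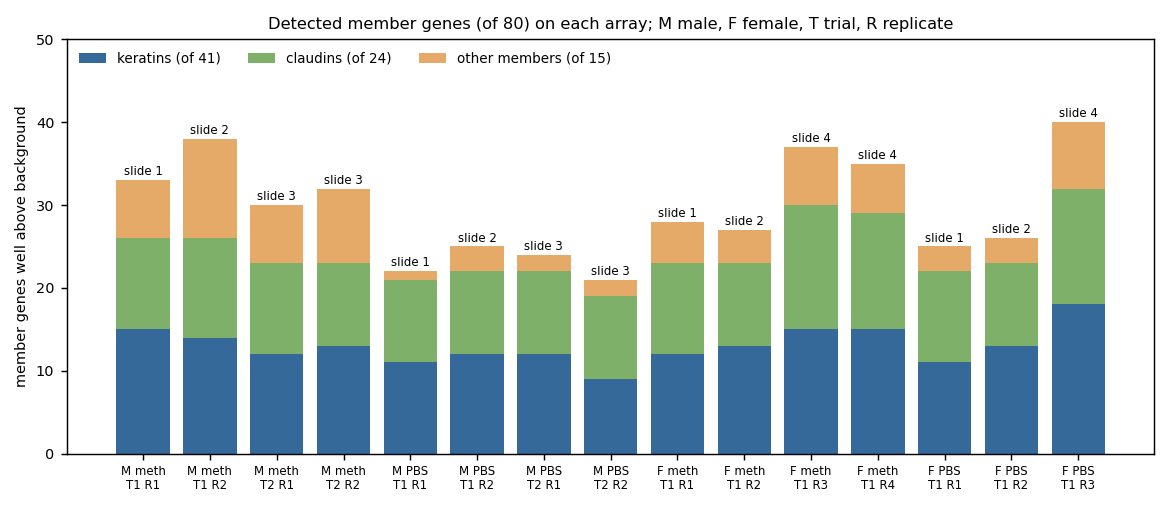
Number of the 80 genes detected (well above background) on each of the 15 arrays, stacked by keratins, claudins and the other genes, with the slide of each array above its bar. The 4 male meth arrays reach 30 to 38 genes and the 4 male PBS arrays 21 to 25, while the highest female bars are those of slide 4.

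In males, 8 of the genes were higher after meth and 1 was lower. The 8 were the keratins Krt15, Krt23 and Krt18, the claudins Cldn7 and Cldn10, the tetraspanin Tspan1, the GABA receptor subunit Gabrp and the cadherin Cdh1, and the lower one was Cldn5. Among all tested features, 0.8% were called higher and 0.307% lower in this comparison. A gene that is undetected in controls can enter the test only by being detected after meth. Counts over genes detected on every array, and with no detection requirement, are therefore given too. Of the 20 genes detected on all 15 arrays, Krt18, Cldn7 and Cldn10 were called higher and Cldn5 lower (20.0%). Of all 12622 genes so detected, 0.967% were called (82 higher and 40 lower). The median log2 change was 0.11 over the 20 genes and -0.02 over the 12622. When all 41174 features were tested with no detection requirement, 6 of the 80 genes were called (Krt15, Krt18, Krt23, Cldn7, Tspan1 and Cdh1), all higher, beside 0.369% of all features called higher and 0.0607% lower. Fewer or more epithelial cells and less or more RNA in each such cell cannot be told apart in heart tissue.

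**Figure D2:**
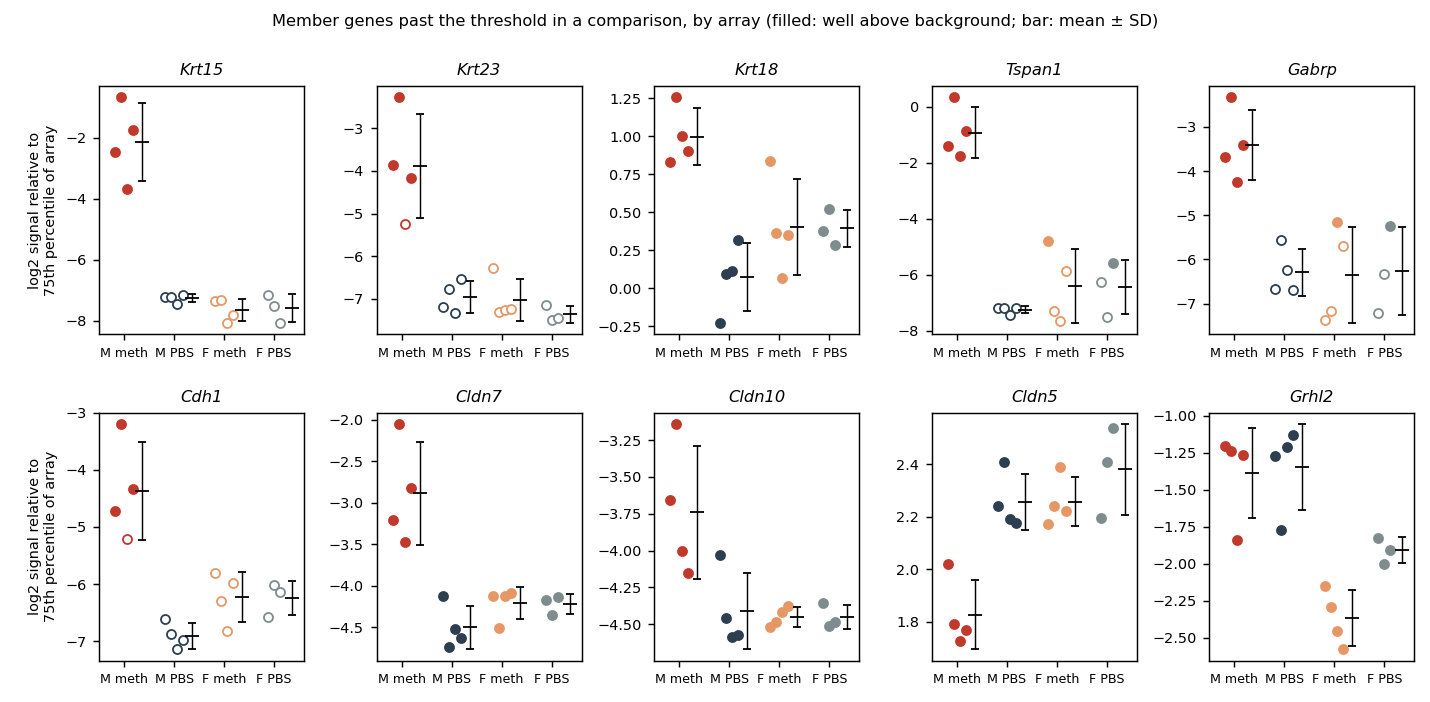
Log2 signal relative to the 75th percentile of the array for the 10 genes called in any comparison, with a point for each array (M male, F female), filled where the feature was well above background, and a bar for the group mean ± SD. Krt15 and Tspan1 lie far above every other group on the male meth arrays, whereas Cldn5 is lowest there.

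The start-site regions of 4 of the higher genes are shown because they hold the same short motif, CAGGTG, an E-box that the epithelial repressors of the Snail and Zeb families bind. They were read from RefSeq on GRCm38.p6, from 250 bases before to 50 after the start site, 5′ to 3′ on the strand of the gene, and capitals mark CAGGTG or its reverse complement CACCTG. The regions are Tspan1 at chr4:116167549-116167848 (minus strand), Krt18 at chr15:102027966-102028265 (plus strand), Krt23 at chr11:99493071-99493370 (minus strand) and Cldn7 at chr11:69965171-69965470 (plus strand).
Tspan1: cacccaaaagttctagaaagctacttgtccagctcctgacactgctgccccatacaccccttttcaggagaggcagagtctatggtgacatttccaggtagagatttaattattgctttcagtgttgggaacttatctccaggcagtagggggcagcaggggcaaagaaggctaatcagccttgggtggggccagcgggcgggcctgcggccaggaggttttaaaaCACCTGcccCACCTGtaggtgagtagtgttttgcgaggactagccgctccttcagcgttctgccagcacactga
Krt18: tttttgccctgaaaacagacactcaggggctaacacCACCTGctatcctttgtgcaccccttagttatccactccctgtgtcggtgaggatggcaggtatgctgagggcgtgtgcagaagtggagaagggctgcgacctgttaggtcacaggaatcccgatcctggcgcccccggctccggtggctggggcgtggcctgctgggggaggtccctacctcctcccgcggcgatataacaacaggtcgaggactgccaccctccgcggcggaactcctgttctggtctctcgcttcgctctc
Krt23: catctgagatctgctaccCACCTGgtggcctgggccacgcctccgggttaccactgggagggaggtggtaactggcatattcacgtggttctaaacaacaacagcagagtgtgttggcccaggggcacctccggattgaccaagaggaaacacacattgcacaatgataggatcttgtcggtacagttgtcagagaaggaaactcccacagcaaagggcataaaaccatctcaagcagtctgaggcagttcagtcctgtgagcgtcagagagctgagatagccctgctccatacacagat
Cldn7: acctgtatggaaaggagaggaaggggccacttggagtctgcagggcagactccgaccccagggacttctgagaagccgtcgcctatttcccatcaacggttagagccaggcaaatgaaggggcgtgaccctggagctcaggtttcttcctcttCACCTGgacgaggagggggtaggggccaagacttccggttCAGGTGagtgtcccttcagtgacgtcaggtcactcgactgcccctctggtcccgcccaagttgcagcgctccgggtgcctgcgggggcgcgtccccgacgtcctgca

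The motif lies 24 and 15 bases before the start site of Tspan1, 214 before that of Krt18, 232 before that of Krt23, and 97 and 57 before that of Cldn7. RefSeq start sites were matched for 55 of the 80 genes, with 67 regions. CAGGTG on either strand was in 23 of these 67 (34.3%) and in 20.2% of all 32851 regions. Among the called genes, 7 had an entry, with 9 regions, of which 4 held it. The grainyhead motif AACCGGTT, which Grhl2 binds, was in 0 of the 67 regions and in 0.146% of all regions. The TATA box letters TATAAA were in 20.9% of the 67 regions and 13.6% of all regions, and in 0 of the 9 regions of called genes. These are matches of letters and show no binding.

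Krt15 is a type I keratin of basal cells and was called in males. Its log2 signals in male meth hearts were -2.45 and -0.67 in trial 1 and -3.69 and -1.73 in trial 2, and in male PBS hearts they were -7.23, -7.23, -7.43 and -7.14. It was detected on all 4 male meth arrays and on no other array, and the male groups did not overlap. The change was 5.12 ± 0.45 (SE) on the log2 scale, with an adjusted p of 0.000138. As the PBS signals were not well above background, the change is bounded from below. The mean of the meth arrays was at least 7.21-fold higher than the dimmest detected signals on the PBS arrays.

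Krt23, a type I keratin of simple and glandular epithelia, had signals of -3.85, -2.27, -5.24 and -4.16 in male meth hearts and -7.19, -6.77, -7.34 and -6.52 in male PBS hearts. It was detected on 3 of the 4 male meth arrays and nowhere else, and the groups did not overlap. It rose by 3.07 ± 0.43 (SE; adjusted p = 0.00508), at least 2.15-fold.

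Krt18, which forms the filaments of simple epithelia and mesothelium with Krt8, was detected on all arrays. Its male meth signals of 0.83, 1.26, 1.00 and 0.90 all lay above the male PBS signals of -0.23, 0.09, 0.11 and 0.32. This is a 1.90-fold rise (log2 0.93 ± 0.16, adjusted p = 0.0174). Its partner Krt8 read -1.10, -0.08, -1.10 and -0.54 after meth and -2.23, -2.00, -1.44 and -1.27 after PBS. Krt8 did not pass the test (log2 difference 1.03 ± 0.27, adjusted p = 0.116). The other simple keratins Krt19 (0.76 ± 0.30, adjusted p = 0.294) and Krt7 (0.45 ± 0.24, adjusted p = 0.473) did not pass either. Krt19 differed by 1.39 in trial 1 and 0.13 in trial 2, and Krt7 by 1.01 and -0.10. The basal keratin Krt5 read -3.28, -1.87, -3.95 and -2.94 against -4.76, -4.84, -4.28 and -4.86 and did not pass (1.67 ± 0.42, adjusted p = 0.0977). Krt14, the usual partner of Krt5, had a log2 difference of 0.04 ± 0.29 (adjusted p = 0.97). Krt222, among the brightest keratins of male PBS hearts, differed by -0.12 in trial 1 and 0.08 in trial 2 and was not called.

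Mesothelial markers are given beside the simple keratins, since mesothelium uses them. The summed signal of the 7 mesothelial genes on the array, in multiples of the 75th percentile, was 5.98 to 9.45 in male meth and 4.23 to 5.39 in male PBS hearts, which did not overlap, and 5.69 to 8.82 and 6.01 to 7.36 in female meth and PBS hearts. None of the 7 passed the test in males. Their part in the keratin values was not tested.

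Of the claudins, Cldn7, a claudin of many epithelia, rose most in males. It was detected on all 15 arrays, with signals of -3.20, -2.05, -3.47 and -2.82 after meth and -4.13, -4.74, -4.52 and -4.63 after PBS. The groups did not overlap, and the rise was 3.07-fold (log2 1.62 ± 0.23, adjusted p = 0.0061). Cldn10, an ion-selective claudin, read -3.66, -3.14, -4.00 and -4.15 after meth and -4.03, -4.46, -4.59 and -4.57 after PBS. Its groups overlapped, although the fit called a 1.59-fold rise (log2 0.67 ± 0.12, adjusted p = 0.0259), and the exact permutation test gave p = 0.0571. For each of the other 8 called genes that test gave 0.0286, the smallest value 4 against 4 arrays allow. Cldn3, a sealing claudin, read -3.25, -2.22, -3.68 and -2.91 against -4.04, -3.90, -4.38 and -4.06 and did not pass (1.08 ± 0.27, adjusted p = 0.0908).

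Cldn5, the claudin of endothelial tight junctions, moved the other way. Its male meth signals were 2.02, 1.79, 1.73 and 1.77, all below the male PBS signals of 2.24, 2.41, 2.19 and 2.18. It fell by 0.43 on the log2 scale (SE 0.09, adjusted p = 0.0376). The summed signal of 8 other endothelial genes was 39.0 to 42.7 in male meth and 40.1 to 46.6 in male PBS hearts, ranges that overlap, and none of the 8 was called. Other claudins detected on all arrays in heart, Cldn12 (0.10 ± 0.06, adjusted p = 0.577) and Cldn15 (0.20 ± 0.14, adjusted p = 0.585), did not pass.

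Tspan1 is a tetraspanin of the epithelial cell surface. Its signals were -1.41, 0.34, -1.76 and -0.88 in male meth hearts and -7.20, -7.19, -7.44 and -7.18 in male PBS hearts. No male PBS array detected it, and the groups did not overlap. The fitted change was 6.33 ± 0.61 (SE, adjusted p = 0.000279), at least 16.7-fold in array signal. The second feature of the gene gave 5.24 ± 0.45 (adjusted p = 0.000122). The paper's real-time PCR gave a smaller male rise for Tspan1 than its arrays did.

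Gabrp is a GABA-A receptor subunit found in epithelia. It read -3.68, -2.33, -4.24 and -3.41 in male meth hearts and -6.66, -5.56, -6.25 and -6.69 in male PBS hearts, where it was not detected. It rose by 2.88 ± 0.56 (adjusted p = 0.0306), at least 2.98-fold. Cdh1, the cadherin of epithelial adherens junctions, read -4.72, -3.20, -5.22 and -4.34 after meth and -6.61, -6.88, -7.14 and -6.99 after PBS. It was detected on 3 male meth arrays and on no other array of either sex, and its rise was 2.53 ± 0.32 (adjusted p = 0.00246), at least 1.53-fold.

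Other membrane and junction genes were higher on the log2 scale in male meth hearts without passing the test. Prom1, a protein of membrane protrusions, differed by 1.66 ± 0.41 (adjusted p = 0.0863). The protease St14 (matriptase) differed by 1.05 ± 0.28 (adjusted p = 0.119) and its inhibitor Spint1 by 2.01 ± 0.74 (adjusted p = 0.268). Tjp3, a scaffold under the tight junction, differed by 0.87 ± 0.27 (adjusted p = 0.191), Tspan8 by 0.47 ± 0.16 (adjusted p = 0.235) and Cdh3 (P-cadherin) by 0.21 ± 0.34 (adjusted p = 0.851). None of these genes is among the 20 detected on all 15 arrays. Of those 20, 8 (40.0%) had an unadjusted limma p under 0.05, beside 12.8% of all genes so detected. The 8 include the called Krt18, Cldn7, Cldn10 and Cldn5.

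Among the regulators, Elf3, Trp63 and the adhesion protein Epcam were each detected on a single array, the second male meth array of trial 1, at -4.65, -4.56 and -4.47. They were therefore not tested. Grhl2, a grainyhead factor that switches on junction genes, was detected on all arrays, with -1.20, -1.24, -1.84 and -1.26 after meth and -1.27, -1.77, -1.21 and -1.13 after PBS in males. These groups overlapped (log2 difference -0.04 ± 0.17, adjusted p = 0.953). The other 2 Grhl2 features were detected on no array.

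**Figure D3:**
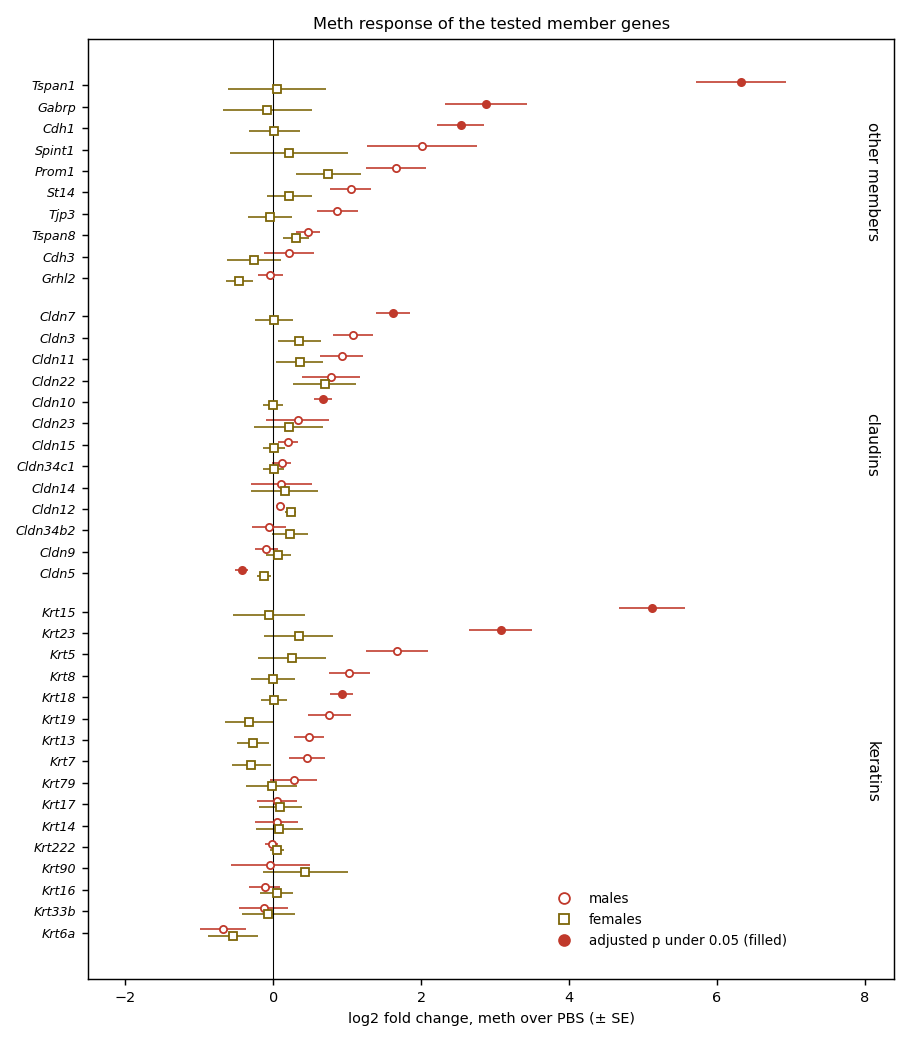
Log2 fold change of meth over PBS (± SE) for the 39 tested genes, circles for males and squares for females, filled where the adjusted p was under 0.05. In males Tspan1 and Krt15 lie beyond 5 and Cldn5 below 0 among the filled points, and no female point is filled.

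How firmly each call stood differed between the genes. Krt15, Krt23, Cldn7, Cdh1 and Tspan1 were called whichever single array was left out. Without 1 of the male PBS arrays (either of trial 1, or the first of trial 2) these 5 were the only ones of the 9 still called. Krt18 was not called without any 1 of those 3 arrays or the second male meth array of trial 1. Gabrp was not called without any 1 of 7 of the 8 male arrays, the exception being the first male meth array of trial 1, and Cldn10 was not called without the first male meth array of trial 2 or any 1 of the 4 male PBS arrays. Cldn5 stayed called without the first male meth array of trial 1 and without 5 of the 7 female arrays, and was not called without any other 1 array. With normexp background correction, which compresses dim signals, Krt18 and Tspan1 alone were called. With a floor at the lowest detected signal of each array, Krt23 and Cdh1 were not called. With the trial of 3 females taken from the other label, Cldn5 (adjusted p = 0.0535) and Cldn10 (adjusted p = 0.0773) were not called, nor were they with no trial term, and Cldn5 was not called after quantile scaling (adjusted p = 0.0808). With trial 1 alone, Krt15, Krt23 and Tspan1 were the ones called.

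The 9 called genes had the same direction of change in each male trial. Krt15 differed by 5.67 in trial 1 and 4.58 in trial 2, Tspan1 by 6.66 and 5.99, Krt23 by 3.92 and 2.23, Cdh1 by 2.78 and 2.29, Gabrp by 3.11 and 2.65, Cldn7 by 1.81 and 1.43, Krt18 by 1.11 and 0.74, Cldn10 by 0.85 and 0.50, and Cldn5 by -0.42 and -0.44. No feature on the array was called for a difference between the trials (0.0% in either direction), and 5 of the 39 genes (12.8%) had an unadjusted p under 0.05 for it, beside 4.22% of all tested genes. The fitted change was lower in trial 2 than in trial 1 for 30 of the 39, and for 7850 of all 14217 genes. On each of the 3 slides with male arrays, the 8 higher genes were higher after meth and Cldn5 was lower. Slide 3 held all males of trial 2, so its differences are those of trial 2. Trial, slide and scan session cannot be told apart between the male trials. The within-slide differences ran from 4.58 to 6.56 for Krt15, from 5.79 to 7.53 for Tspan1, from 0.93 to 2.69 for Cldn7 and from -0.62 to -0.22 for Cldn5.

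The male meth hearts differed among themselves in a shared order. The second array of trial 1 was the highest of the 4 for all 8 higher genes, and the first array of trial 2 was the lowest for 6 of them. Over all tested genes these arrays held those positions for 34.7% and 38.8%. For Krt15 the difference between the 2 arrays was that between -0.67 and -3.69.

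Markers of several other cell types followed a like order. Of the 9 airway secretory markers on the array (among them Scgb1a1, the club cell secretoglobin), 8 were called higher in male meth hearts, and 8 were highest on the second array of trial 1 and 7 lowest on the first of trial 2. Their summed signal was 40.8 to 200 in male meth hearts, 4.97 to 5.85 in male PBS, 6.45 to 9.66 in female meth and 6.76 to 8.94 in female PBS hearts. Of 6 tested ciliated airway markers, 3 were called higher in males, with summed signals over 9 genes of 3.85 to 5.24 after meth and 2.80 to 3.55 after PBS. Alveolar markers had summed signals of 0.678 to 1.63 after meth and 1.33 to 1.48 after PBS in males, with 2 of 6 tested genes (Sftpa1 and Sftpd) called higher and Sftpb detected on no array. Few markers of other tissues could be tested, namely 1 of thymic epithelium, 2 of thyroid, 1 of parathyroid, 3 of keratinocytes and oesophagus and 1 of nerve, and 0 were called. The summed signal of the 9 keratinocyte and oesophagus genes on the array was 0.924 to 1.62 in male meth and 0.737 to 0.919 in male PBS hearts, which did not overlap, and those of the other 4 lists overlapped. Psmb11 and Prss16 (thymus), Pax8 (thyroid), Pth (parathyroid) and Ivl and Krtdap (keratinocytes) were detected on no array. The highest array was the second of trial 1 for 5 of 6 ciliated, 5 of 6 alveolar and 5 of 7 mesothelial markers tested, and the lowest was the first of trial 2 for 5, 4 and 7 of them. Endothelial markers did not share it, with 0 of 8 highest and 6 of 8 lowest on the second array of trial 1. Among the 31 tested keratin, claudin and adhesion genes that were not called higher, 45.2% were highest and 51.6% lowest on those arrays. The part of airway or mesothelial RNA in the keratin, claudin and adhesion values was not tested.

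**Figure D4:**
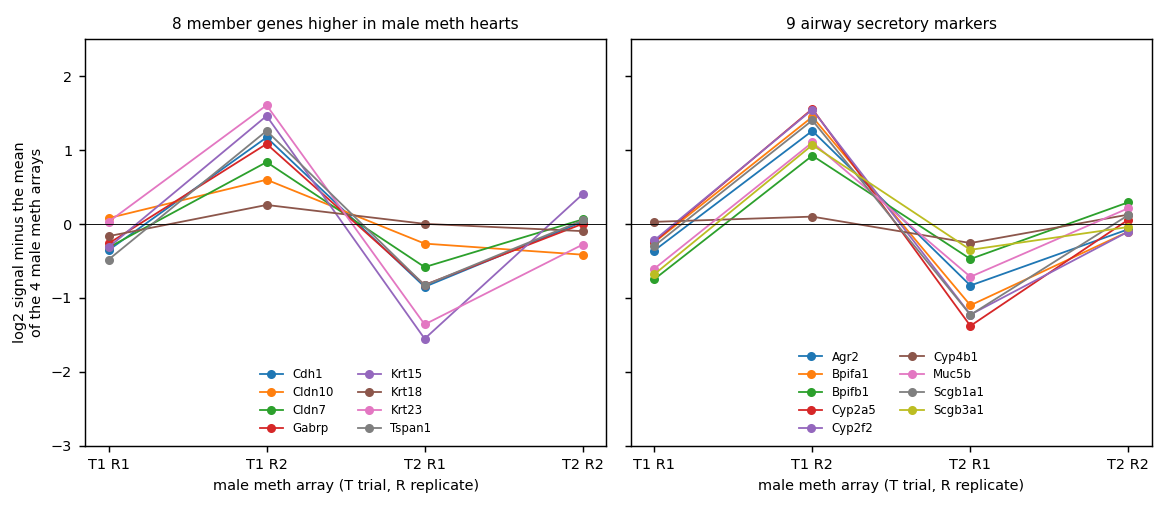
Log2 signal on each male meth array minus the mean of the 4 arrays, for the 8 higher keratin, claudin and adhesion genes (left) and 9 airway secretory markers (right). In both panels most lines peak on the second array of trial 1 and are lowest on the first array of trial 2.

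Junction genes outside the chosen families did not pass the test in males. Of 15 tested desmosome and hemidesmosome genes, 0 were called, with a median log2 difference of 0.04. The 15 tested tight junction and polarity genes had a median of 0.03 and the 12 adherens junction genes -0.04, again with 0 called. Of these 3 lists, 15, 14 and 11 genes were detected on all 15 arrays, so the medians describe mostly genes present in every heart. Of 18 further epithelial regulators and proteases on the array, 7 were tested and 0 called. Klf5, a transcription factor of epithelial progenitors, had the lowest adjusted p of these 7 (log2 difference 1.10, adjusted p = 0.0652).

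In females, none of the 39 tested genes was called, beside 0.205% of all features higher and 0.554% lower, and 2 (5.13%) had an unadjusted p under 0.05, beside 7.82% of all tested genes. These were Cldn12 (log2 difference 0.24 ± 0.07, adjusted p = 0.169) and Grhl2 (-0.46 ± 0.18, adjusted p = 0.351). The 39 differences ran from -0.55 to 0.74. Krt15 was not well above background on any female array, with -7.34, -7.33, -8.07 and -7.82 after meth and -7.17, -7.53 and -8.06 after PBS, and a difference of -0.05 ± 0.49. Tspan1 read -4.80, -7.30, -7.64 and -5.88 after meth and -6.27, -7.50 and -5.59 after PBS, with 1 array detected in each group and a difference of 0.05 ± 0.66. Krt18 (0.01 ± 0.17), Cldn7 (0.01 ± 0.25), Cldn10 (0.00 ± 0.13) and Cldn5 (-0.12 ± 0.09), all detected on every female array, did not pass. Of the 9 airway secretory markers, Bpifa1 was called higher in females.

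The difference between the sexes in the meth response was tested directly. Krt15 and Tspan1 passed, beside 0.102% of all features with a response called higher in males and 0.0353% lower. The male change of Krt15 exceeded the female change by 5.18 ± 0.66 (adjusted p = 0.0081), and that of Tspan1 by 6.28 ± 0.90 (adjusted p = 0.0138). With a block for the replicate number, which in females pairs arrays by slide, the differences were 5.12 and 6.45, and neither passed (adjusted p = 0.0774 and 0.0896). Without the arrays of slide 4, they were 5.11 and 5.49 and did not pass (adjusted p = 0.131 and 0.176). With normexp they were 1.08 and 1.94 (adjusted p = 1.00 for both), and with a floor on dim signals Krt15 gave 2.95 (adjusted p = 0.186). These values rest on signals not well above background on all male PBS arrays and, for Krt15, on all female arrays. Tspan1 also did not pass without female PBS array 1 (6.19, adjusted p = 0.0571) or without female PBS array 3 (5.85, adjusted p = 0.0511). Cdh1 (2.52, adjusted p = 0.0798), Cldn7 (1.61, adjusted p = 0.156), Krt23 (2.73, adjusted p = 0.22), Gabrp (2.96, adjusted p = 0.358), Krt18 (0.92, adjusted p = 0.319), Cldn10 (0.67, adjusted p = 0.354) and Cldn5 (-0.30, adjusted p = 0.562) did not pass.

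Between PBS hearts of the sexes, none of the 39 genes passed the test, beside 0.549% of all 14217 tested genes (33 higher in males and 45 lower). Of the 39, 4 genes (10.3%) had an unadjusted p under 0.05, beside 15.3% of all tested genes. Differences between the sexes are fitted at trial 1, to which the females were assigned. Between the meth hearts, 8 genes were higher in males and 0 lower, beside 1.18% and 1.44% of all features. Krt15 (5.80, adjusted p = 6.72e-05), Tspan1 (5.70, adjusted p = 0.000944), Krt23 (3.53, adjusted p = 0.0023), Gabrp (3.23, adjusted p = 0.0187), Cdh1 (2.15, adjusted p = 0.00948), Cldn7 (1.49, adjusted p = 0.0115) and Cldn10 (0.96, adjusted p = 0.00353) were also among those called between male treatments, and the comparison shares the male meth arrays with that one. The other was Grhl2. Its signals in female meth hearts were -2.15, -2.29, -2.45 and -2.58, below all 4 male meth hearts and also below the female PBS hearts at -1.82, -2.00 and -1.90. The male to female difference in Grhl2 after meth was 0.97 ± 0.19 (adjusted p = 0.019). Between the PBS hearts Grhl2 differed in the same direction by 0.56, which did not pass the test. Its meth response was not called different between the sexes. Grhl2 was not called when any 1 of male meth arrays 1 and 2 of trial 1 or female meth arrays 3 and 4 was left out. Without the arrays of slide 4, 4 of the 8 were called (Krt15, Tspan1, Gabrp and Cldn10), and with normexp background correction Tspan1 alone.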

How the data were processed

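The authors hybridised Cy3-labelled heart RNA to 1-colour Agilent arrays. The deposited intensity of a spot is the background-subtracted value from Feature Extraction, with no scaling between arrays. A log2 table deposited by the authors equals the log2 signal plus a constant for each array and was tried as an alternative.

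Control and outlier spots were left out, spots of a feature were averaged, and the 75th percentile of each array was subtracted, taken over the 41174 non-control features. No spot was saturated. A gene is given by its feature with the highest mean signal. Symbols were matched by accession through a RefSeq table, and the features carry coordinates of another build, so none are given for them. Features were tested in limma 3.58.1 (lmFit and eBayes, R 4.3.3) over all 15 arrays with the 4 groups and trial, two-sided, with Benjamini-Hochberg adjustment over all 28358 features. For the response by trial, the fit had separate male groups for the trials. Exact permutation tests enumerated every regrouping. At least-fold values set the mean of the brighter group against, on each array of the dimmer group, the higher of the feature's own signal and the lowest signal of any detected feature. The fit was run on simulated data with independent normal noise and no slide, scan or trial effect. That run cannot show how the fit behaves with such effects or with dim signals. The number of arrays limits the precision, and nothing says that p-values cover more than the spread between these mice. Figures were made in Python 3.11.15 with matplotlib 3.10.9.

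Genes named are all genes past the threshold in any of the comparisons, the 16 single genes, set keratins and claudins, and the brightest keratins and claudins of male PBS hearts. Others named were chosen after their values were seen. The members and lists were chosen with earlier results of these data known. The lists were markers of cardiomyocytes, endothelium, mesothelium, airway secretory and ciliated cells, alveoli, thymic epithelium, thyroid, parathyroid, keratinocytes and oesophagus, and nerve, and 4 lists of desmosome, tight junction, adherens junction and regulatory genes.

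Same-numbered meth and PBS arrays shared a slide in both sexes. Their deviations from the group means within a trial correlated in females (0.30, 0.44 and 0.66) and not in males (-0.09 to 0.01). The female means took in bright slide 4 beside dimmer slides, and the male means did not. The correlations therefore cannot show whether the numbers pair mice in either sex. Alternatives were the authors' log2 table, normexp background correction (offset 50, on the median pixel signal since the files hold no mean), quantile and median scaling, a floor, other filters, no trial term or the trial of the other label, slide or replicate as a block, trial 1 alone, the methods' t-test and leaving out each array.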

Additional observations from a re-analysis of the deposited data

Results flagged for a closer look

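The meth response of Krt15 and Tspan1 differed between the sexes by the test of the difference itself, by 5.18 and 6.28 on the log2 scale (adjusted p = 0.0081 and 0.0138). Neither call held with the replicate block that pairs the females (adjusted p = 0.0774 and 0.0896), without slide 4 (0.131 and 0.176) or with normexp (1.00 for both), and that of Krt15 did not hold with the floor (0.186). Both sizes rest on signals that were not well above background in male PBS hearts and, for Krt15, on every female array.

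Among 75 pairs of a named gene and a group of 4 arrays, 4 held an array that stood far from the other 3, and chance gives about 1 in 20. Cldn7 on female meth array 2 read -4.50, below -4.13 to -4.09 on the others. Grhl2 on the first male meth array of trial 2 read -1.84, below -1.26 to -1.20. Krt23 on female meth array 1 read -6.28, above -7.30 to -7.24, and Tspan1 on the first male PBS array of trial 2 read -7.44, below -7.20 to -7.18. None of these Krt23 and Tspan1 signals was well above background.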

How the results depend on the processing

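Of the 28 other fits of male meth against PBS, 22 gave a count of called genes within 1.5 times the 9 reported. The other 6 gave 2 with normexp, 4 with the filter on all 15 arrays, 3 with the trial 1 arrays alone, and 5 without each of 3 male PBS arrays (both of trial 1 and the first of trial 2). Leaving out each array in turn gave 5 to 9. The methods' t-test gave 16 genes unpaired and 11 paired at an unadjusted p under 0.05, and 1 and 0 after Benjamini-Hochberg adjustment. The female count of 0 held in all 28 fits, while the methods' t-test gave 2 genes paired and 3 unpaired, unadjusted. For the difference between the sexes the count of 2 became 0 with normexp, 0 with the filter on all 15 arrays (which leaves out Krt15 and Tspan1), 1 with the floor, 1 with trial 1 alone, 0 without slide 4 (chosen after seeing the data) and 1 to 3 on leaving out each array. Between the meth hearts the count of 8 became 1 with normexp, 3 with the filter on all 15 arrays, 4 without slide 4 and 6 to 9 on leaving out each array. Between the PBS hearts, and between the male trials, the count was 0 in every fit run. No result changed direction.

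With the replicate block, 6 genes were called in males and 0 for the difference between the sexes, and it changed no call within females. A shift by the array median moved the median of all features in the difference between the sexes from -0.02 to -0.12, and Krt15 and Tspan1 were still called. The cause of these differences was not tested. Genes not well above background have a bound, not a level.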
